A study of Mus musculus with 12 samples.

Results

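The genes of 6 surface proteins by which antigen-presenting cells speed up or slow down T cells were followed: Cd80, Cd86, Icosl, Cd40, Cd274 (which encodes PD-L1) and Pdcd1lg2 (which encodes PD-L2). They were chosen by name, as the rows of both count tables whose mouse gene identifier carries one of these symbols, and all 6 were found among the 55487 genes of each table. On GRCm38, Cd80 lies at chr16:38455561-38496335 and Cd86 on the same chromosome at chr16:36603869-36666081, Cd274 at chr19:29367455-29388095 and Pdcd1lg2 next to it at chr19:29410919-29471161, Cd40 at chr2:165055627-165072948 and Icosl at chr10:78069302-78083913. RNA-seq was measured in 2 experiments on cells from C57BL/6 mice labelled as 8 weeks old. In the first, bone marrow-derived macrophages (BMMs) came from mice whose ovaries were removed (OVX, a model of postmenopausal bone loss, 3 libraries) or from sham-operated mice (3 libraries); the study's methods describe growing BMMs from leg bones with M-CSF, the growth factor that drives macrophage differentiation. In the second, mesenchymal stem cells (MSCs) were grown alone (MSC, 2 libraries), or with RAW264.7 cells, a mouse macrophage line, on the far side of a transwell membrane, either untreated (MSC+RAW-TW, 2 libraries) or treated with the bacterial endotoxin lipopolysaccharide (MSC+RAW-LPS-TW, 2 libraries). The labels do not say whether libraries came from separate animals or cultures, so p-values measure the spread between these libraries, which may be technical.

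A T cell that meets its antigen also reads other proteins on the presenting cell. CD80 and CD86 bind CD28, which promotes activation, and CTLA-4, which restrains it, ICOSL binds ICOS, and CD40 is engaged by CD40 ligand on the T cell and signals back into the presenting cell. PD-L1 and PD-L2 bind PD-1 and dampen the T cell, and PD-L1 is a well-known target of interferon and inflammatory signals in macrophages and in stromal cells.

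Library totals ran from 17012923 to 45367105 counts. In 2 pairs of libraries, sham replicates 2 and 3 and both of MSC+RAW-TW, the members of a pair hardly differed: the gene-by-gene chi-square stayed at 2.63 to 3.56 times the value that sampling gives whether counts were low or high, whereas in the other pairs of a group it grew 8.62 to 74.1 times from low to high counts. Each such pair was therefore averaged and counted as 1 sample, leaving 2 sham samples and 1 MSC+RAW-TW sample. Levels are counts scaled to library size (CPM, by TMM), and values are mean ± SD over samples. Calls required a fold change of 2 or more and an adjusted p no higher than 0.05, from edgeR's quasi-likelihood test with Benjamini-Hochberg adjustment over all genes tested.

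The cell type labels were checked against marker genes. In BMMs all 10 macrophage markers exceeded 1 CPM in every library, and their summed level was 53370 to 57710 CPM in sham and 39490 to 44190 CPM in OVX. The MSC libraries also held all 10, at 25660 to 25890 CPM in MSC, 31270 to 31730 CPM in MSC+RAW-TW and 13960 to 14270 CPM in MSC+RAW-LPS-TW, and Ptprc (CD45), which the study used to exclude cells from the MSC phenotype, was at 167 to 171 CPM in MSC, 89.6 to 93.9 CPM in MSC+RAW-TW and 210 to 227 CPM in MSC+RAW-LPS-TW. Lyz2 carried most of these sums, at 21600 to 21690 CPM in MSC and 9149 to 10010 CPM in MSC+RAW-LPS-TW, while Adgre1 (F4/80) was at 511 to 584 CPM in MSC and 1404 to 1535 CPM in MSC+RAW-LPS-TW. The 10 stromal markers summed to 7081 to 7568 CPM in sham, 7397 to 8047 CPM in OVX, 2609 to 2749 CPM in MSC, 2041 to 2056 CPM in MSC+RAW-TW and 3719 to 3722 CPM in MSC+RAW-LPS-TW. The 6 markers of neutrophils and their precursors summed to 724 to 879 CPM in sham and 1078 to 1184 CPM in OVX. S100a8 and S100a9 carried most of these sums and were higher in OVX, as was Ly6g, under 1 CPM. Csf3r was lower in OVX (26.2 to 34.9 against 52.35 to 74.6 CPM), as was Mpo (3.685 to 7.08 against 8.17 to 15.65 CPM), and Elane overlapped. In the MSC groups 2 of these 6 exceeded 1 CPM in every library, and their sum was 56.0 to 59.5 CPM in MSC, 60.9 to 64.6 CPM in MSC+RAW-TW and 441 to 590.0 CPM in MSC+RAW-LPS-TW, where S100a8 was at 341 to 517 CPM, Elane was at 0 and S100a9, Ly6g and Mpo stayed under 1 CPM. The 8 dendritic cell markers summed to 28.2 to 29.9 CPM in sham and 14.2 to 16.8 CPM in OVX. Batf3 carried most of the sham sum, at 17.7 to 20.2 CPM, and was at 3.41 to 4.39 CPM in OVX, where Ccr7 and Xcr1 were also lower. Itgax was higher in OVX (6.27 to 9.24 against 4.26 to 5.885 CPM), and Zbtb46 overlapped. Flt3 and Clec9a were under 1 CPM or at 0 in both groups. In MSC, MSC+RAW-TW and MSC+RAW-LPS-TW the 8 summed to 59.0 to 62.6, 92.6 to 93.7 and 59.7 to 63.2 CPM. Itgax carried most of that, at 54.1 to 57.7, 87.8 and 55.2 to 57.8 CPM. The part of such cell mixtures in the results below was not tested, and in bulk RNA fewer cells of a type and less RNA per cell cannot be told apart.

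In BMMs the clearest differences ran in opposite directions. Cd80 was higher in OVX and Cd274 was lower, whereas Cd86, the close relative of Cd80 that shares its receptors, was not called. Of the 6 members 1 was called higher and 1 lower, beside 5.54% of all 16324 genes tested called higher and 3.06% called lower (904 and 500 genes). With GC content and length trends removed, an alternative chosen after seeing the data, that split was 222 higher and 372 lower.

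Cd80 stood at 18.3, 19.2 and 16.5 CPM in OVX replicates 1 to 3. In sham replicates 1 to 3 it stood at 8.04, 6.83 and 8.00 CPM. Every OVX library lay above every sham library. Counted over samples, with the averaged pair as 1 sample, the groups did not overlap in either direction for 47.9% of all genes tested. The group means were 18.0 ± 1.35 CPM (SD, n = 3) and 7.73 ± 0.44 CPM (n = 2), and the fitted log2 fold change was 1.21 (SE 0.20, edgeR adjusted p = 0.0103). Without OVX replicate 2 it was 1.17 with an adjusted p of 0.0667, and with GC content and length trends removed it was 0.68 with an adjusted p of 0.0633, so the call was lost in both. The column headers carry 2 series of library numbers, and within them the log2 ratio was 1.12 (2 against 2 libraries) and 1.49 (1 against 1).

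Cd274 measured 13.1, 8.60 and 10.6 CPM in OVX. Sham replicates 1 to 3 had 42.1, 28.03 and 26.2 CPM. The highest OVX library was well below the lowest sham library, and sham replicate 1 was the highest of all. The means were 10.8 ± 2.24 CPM in OVX and 34.6 ± 10.6 CPM in sham, and Cd274 fell by 1.70 on the log2 scale (SE 0.26, edgeR adjusted p = 0.00839). The change was -1.54 with an adjusted p of 0.0546 without OVX replicate 2, and -1.53 and -1.70 within the 2 series of library numbers. An annotated antisense gene, AC119228.1, overlaps exons of Cd274; it held 18 to 45 counts in OVX and 52 to 74 in sham, and since the strand setting of the counting is not stated, reads of the 2 genes cannot be told apart.

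Cd40 was lower in every OVX library, at 6.24, 6.88 and 6.43 CPM, than in the sham libraries, at 11.97, 11.1 and 12.8 CPM. It had an edgeR adjusted p of 0.0263, but its log2 fold change, -0.89 (SE 0.20), did not reach the fold limit. Icosl was at 8.25, 8.76 and 8.11 CPM in OVX and at 10.9, 13.5 and 11.5 CPM in sham. These groups did not overlap either, but the log2 fold change of -0.48 (95% interval -0.94 to -0.02) had an edgeR adjusted p of 0.153.

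Cd86 was at 6.52, 4.65 and 4.18 CPM in OVX and at 4.95, 3.797 and 4.65 CPM in sham. The groups overlapped, and the interval of its log2 fold change ran from -0.51 to 0.78. Pdcd1lg2 was scarce, with 11 to 47 counts in the OVX libraries and 4 to 37 in the sham libraries, and the interval of its log2 fold change ran from -1.38 to 1.33.

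**Figure D1:**
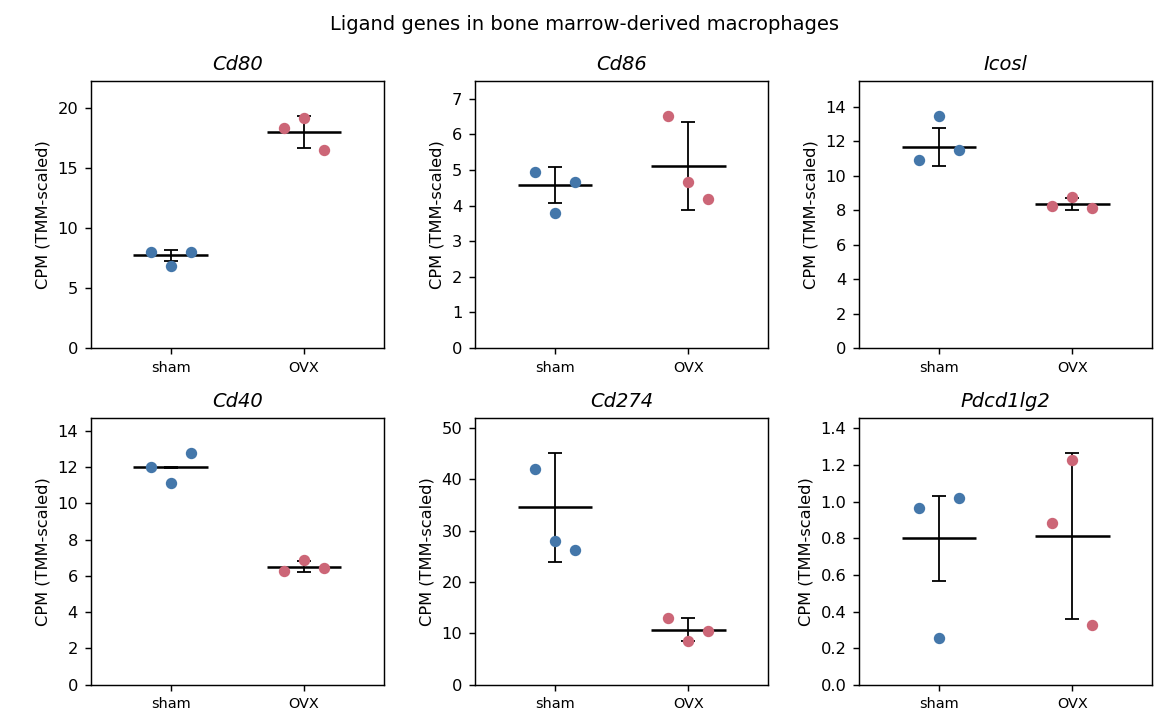
Each point is 1 macrophage library (3 sham, 3 OVX) and the y axis gives CPM after TMM scaling, with the line at the group mean and the bar 1 SD over samples, sham replicates 2 and 3 counted as 1. Cd80 is higher in all 3 OVX libraries, Cd274, Cd40 and Icosl are lower in all 3, and Cd86 and Pdcd1lg2 overlap.

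Ratios within a library do not depend on its depth. On the TPM scale, which divides by gene length as well as library size, Cd80 was 2.78, 4.07 and 3.91 times Cd86 in the OVX libraries and 1.61, 1.78 and 1.70 times in the sham libraries. Cd274 was 2.03, 1.87 and 2.56 times Cd86 in OVX and 8.61, 7.46 and 5.69 times in sham. The groups did not overlap in either ratio. The mean log2 ratio differed by 1.08 for Cd80 to Cd86 and by -1.81 for Cd274 to Cd86, OVX minus sham. Both gave p = 0.2 in an exact two-sided permutation test, which is the smallest p that 3 against 2 samples allow. The log2 Pdcd1lg2 to Cd274 ratio was -3.002, -1.92 and -4.14 in the OVX libraries and -4.57, -5.91 and -3.80 in the sham libraries, so the libraries overlapped. The sample means differed by 1.69 (p = 0.2 by the same exact permutation test), and the samples separated only with sham replicates 2 and 3 averaged.

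**Figure D2:**
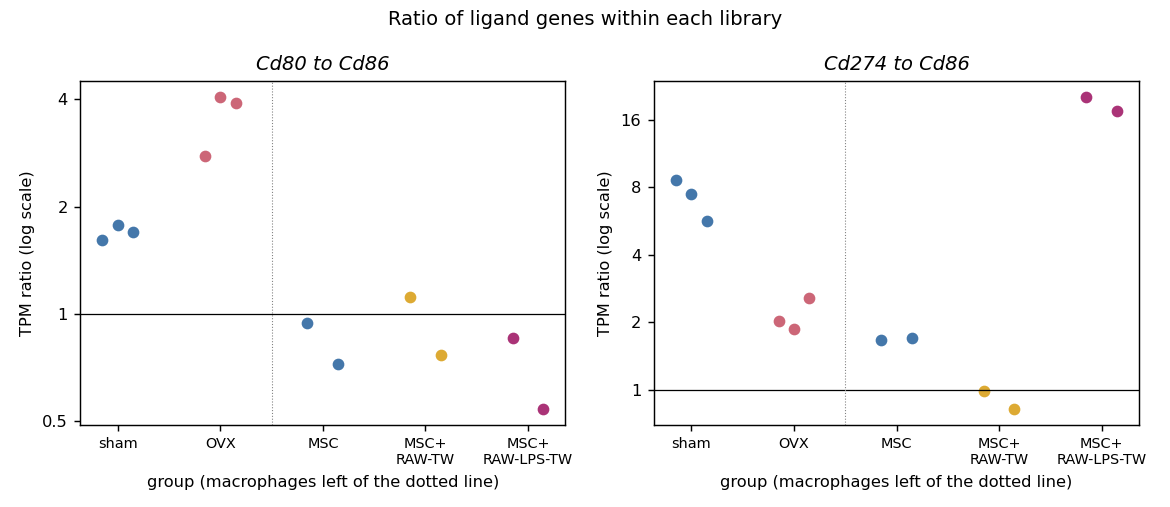
The y axis is the TPM ratio of Cd80 to Cd86 (left) and of Cd274 to Cd86 (right) on a log scale, with 1 point per library in each of the 5 groups. The Cd80 ratio is 2.78 to 4.07 in OVX and 1.61 to 1.78 in sham, and the Cd274 ratio reaches 17.5 and 20.3 in the MSC+RAW-LPS-TW libraries.

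Levels of different genes are compared here on the TPM scale, as a description. Cd274 led in sham at 18.2 ± 5.69, followed by Cd40 at 6.69 ± 0.04, Icosl at 4.82 ± 0.43, Cd80 at 3.98 ± 0.25 and Cd86 at 2.39 ± 0.28. In OVX Cd80 led at 11.8 ± 0.58 and Cd274 followed at 7.23 ± 1.58. Cd40 at 4.65 ± 0.17 and Icosl at 4.41 ± 0.07 were next to each other in OVX, with Cd86 below them at 3.40 ± 0.81, and Pdcd1lg2 was the lowest in both groups, at 0.78 ± 0.23 in sham and 1.00 ± 0.54 in OVX. In MSC the order was Cd274 at 19.98 ± 1.59, Cd86 at 11.9 ± 0.80, Cd80 at 9.81 ± 1.20, Cd40 at 9.37 ± 0.57 and Icosl at 8.02 ± 0.11; Cd80 and Cd40 differed by less than the SD of Cd80. In MSC+RAW-LPS-TW Cd274 at 142 ± 29.99 and Cd40 at 39.3 ± 6.77 stood above Icosl at 9.66 ± 0.52, Cd86 at 7.44 ± 0.81 and Cd80 at 5.29 ± 2.23, the last 2 differing by less than the SD of Cd80.

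Other genes of the same pathways are given list by list, beside the 5.54% called higher and 3.06% called lower over all genes. Among 9 checkpoint and adhesion ligands 1 was called higher and 2 lower, with a median log2 fold change of -0.27 beside -0.01 over all genes. Nectin3, an adhesion molecule of the nectin family, was higher (log2 fold change 1.26). Icam1, the ligand of the integrin LFA-1, and Lgals9, a galectin that binds TIM-3, were lower (-1.42 and -1.17). Among 11 genes of CD40 signaling none was called higher and 2 were called lower, Nfkb2 and Relb, the subunits of the noncanonical NF-kB pathway (-1.15 and -1.07). The other B7 and butyrophilin genes and the costimulatory ligands of the TNF superfamily had 3 tested genes each and no call. With GC content and length trends removed, no gene of these lists was called higher, and 2 checkpoint and adhesion ligands and 1 CD40 signaling gene were called lower.

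The partners of the 6 members on T cells were scarce. Of Cd28, Ctla4, Icos, Pdcd1 and Cd40lg, 2 passed the filter, and Cd28 was called higher in OVX (2.91 ± 0.56 against 0.90 ± 0.13 CPM, log2 fold change 1.70, edgeR adjusted p = 0.0194). It was not called with GC content and length trends removed. Cd40lg had 0 counts in all libraries. The T cell markers summed to 5.51 to 9.09 CPM in OVX and 8.38 to 9.98 CPM in sham, and the B cell markers to 8.53 to 9.44 CPM in OVX and 19.96 to 22.8 CPM in sham. Their part in the results was not tested.

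The second experiment asked how MSCs respond to nearby untreated or LPS-treated macrophages. Against MSCs alone, Cd274 and Cd40 were called higher, 2 of 6 members beside 5.89% of 20456 genes called higher, and no member was called lower beside 5.12%. Cd274 was the larger of the changes.

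Cd274 stood at 302 and 211 CPM in the MSC+RAW-LPS-TW libraries. It stood at 27.3 and 27.5 CPM in MSC, and at 12.01 and 12.8 CPM in MSC+RAW-TW. The lowest value with LPS was several times the highest of the other groups, although the 2 LPS libraries themselves differed. Against MSC the log2 fold change was 3.23 (SE 0.19, edgeR adjusted p = 3.37e-09), and against MSC+RAW-TW it was 4.37 (SE 0.27, edgeR adjusted p = 9.81e-09). It stayed called in all 14 alternatives of both comparisons, with log2 values from 2.92 to 3.47 against MSC and from 3.95 to 4.61 against MSC+RAW-TW. Within the 2 series of library numbers the log2 ratio was 3.47 and 2.94 against MSC and 4.65 and 4.04 against MSC+RAW-TW. The antisense AC119228.1 held 1344 and 894 counts with LPS, beside 10076 and 6609 counts of Cd274.

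Cd40 was at 60.2 and 72.5 CPM with LPS-treated RAW264.7 cells. It was at 13.3 and 10.97 CPM in MSC and at 24.0 and 20.8 CPM in MSC+RAW-TW. No 2 of the 3 groups overlapped in their libraries. Counted over samples, with the averaged MSC+RAW-TW pair as 1 sample, groups did not overlap for 57.8% of all genes in MSC+RAW-LPS-TW against MSC, 84.8% against MSC+RAW-TW and 85.9% in MSC+RAW-TW against MSC. Cd40 differed on the log2 scale by 2.44 from MSC (edgeR adjusted p = 4.25e-08) and by 1.55 from MSC+RAW-TW (edgeR adjusted p = 5.61e-05).

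Icosl was at 23.7 and 20.7 CPM with LPS, at 15.0 and 13.2 CPM in MSC and at 10.6 and 10.9 CPM in MSC+RAW-TW. Its log2 fold change was 0.66 against MSC (edgeR adjusted p = 0.0194), below the fold limit, and 1.04 against MSC+RAW-TW (edgeR adjusted p = 0.00281), where it was called. Without the LPS library headed as number 2 the latter was 0.94, under the limit.

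Cd80 and Cd86 were not called in either comparison with LPS. Cd80 was at 13.0 and 6.63 CPM with LPS, at 15.8 and 11.9 CPM in MSC and at 13.9 and 12.2 CPM in MSC+RAW-TW. Its interval against MSC ran from -1.08 to 0.08 and so includes a 2-fold fall, and without the LPS library headed as number 2 Cd80 was called lower (-1.09, edgeR adjusted p = 0.00281). Cd86 was at 15.0 and 12.2 CPM with LPS and at 16.5 and 16.3 CPM in MSC, with an interval of -0.69 to 0.14.

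Pdcd1lg2 had 0 counts in both MSC+RAW-TW libraries, 4 and 6 in MSC, and 40 and 18 with LPS. Against the level that 3 counts per library would give in MSC+RAW-TW (0.09 CPM), the mean of 0.89 CPM with LPS was at least 10.3-fold higher, and the lower LPS library alone at least 6.65-fold higher (edgeR adjusted p = 0.0133, and 0.0563 without the LPS library headed as number 2). Against MSC the log2 fold change was 2.79 (SE 1.07, edgeR adjusted p = 0.0814). It was called in 2 of 13 alternatives, without the LPS library headed as number 3 (edgeR adjusted p = 0.048) and with only these 2 groups in the fit (edgeR adjusted p = 0.0494). The gene lies 22.8 kb from Cd274 on chromosome 19.

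**Figure D3:**
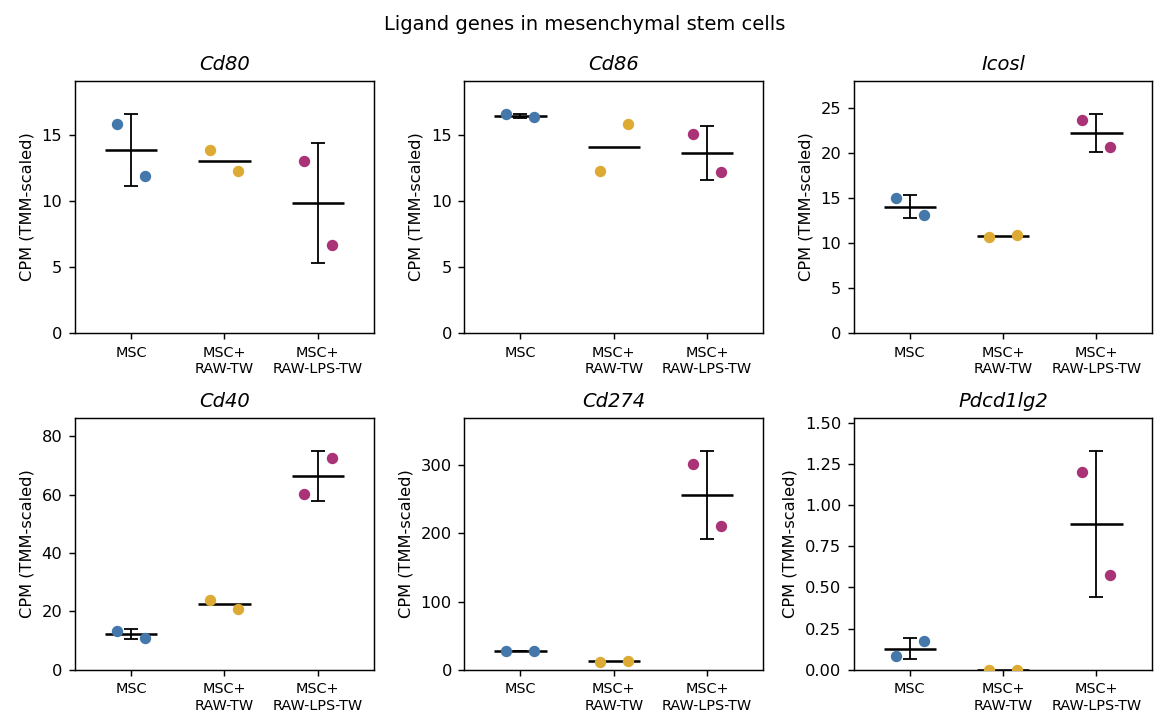
Each point is 1 MSC library (2 per group) and the y axis gives CPM after TMM scaling, with the line at the group mean and the bar 1 SD over samples, the 2 MSC+RAW-TW libraries counted as 1 and so without a bar. Cd274, Cd40 and Icosl are highest in both MSC+RAW-LPS-TW libraries, and neither Cd80 nor Cd86 was called.

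Against MSC+RAW-TW, 4 members were called higher (Cd274, Cd40, Icosl and Pdcd1lg2), beside 14.8% of all genes, and none lower beside 11.3%. The median log2 fold change of all genes was 0.16 in that comparison, and with 1 MSC+RAW-TW sample the spread was taken from the other groups. With GC content and length trends removed, Cd80 was also called there, lower, at -1.05.

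With untreated RAW264.7 cells 1 member was called. In MSC+RAW-TW against MSC only Cd274 was called, and it was lower, 12.4 against 27.4 ± 0.10 CPM (log2 fold change -1.14, SE 0.23, edgeR adjusted p = 0.0023), beside 8.82% of all genes called lower and 6.18% called higher. Here too MSC+RAW-TW was 1 sample, assumed to vary like the other groups. With GC content and length trends removed it was -0.73 and not called, and the calls over all genes went from 1264 higher and 1805 lower to 1077 higher and 824 lower. Cd40 was 22.4 against 12.1 ± 1.65 CPM, a log2 fold change of 0.89 (edgeR adjusted p = 0.00514) that missed the fold limit. It was called higher with GC content and length trends removed (1.01, edgeR adjusted p = 0.00466), so that Cd40 in place of Cd274 was then the called member, and also without MSC replicate 1 (1.04, edgeR adjusted p = 0.00461). The comparisons share their MSC and MSC+RAW-TW libraries.

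**Figure D4:**
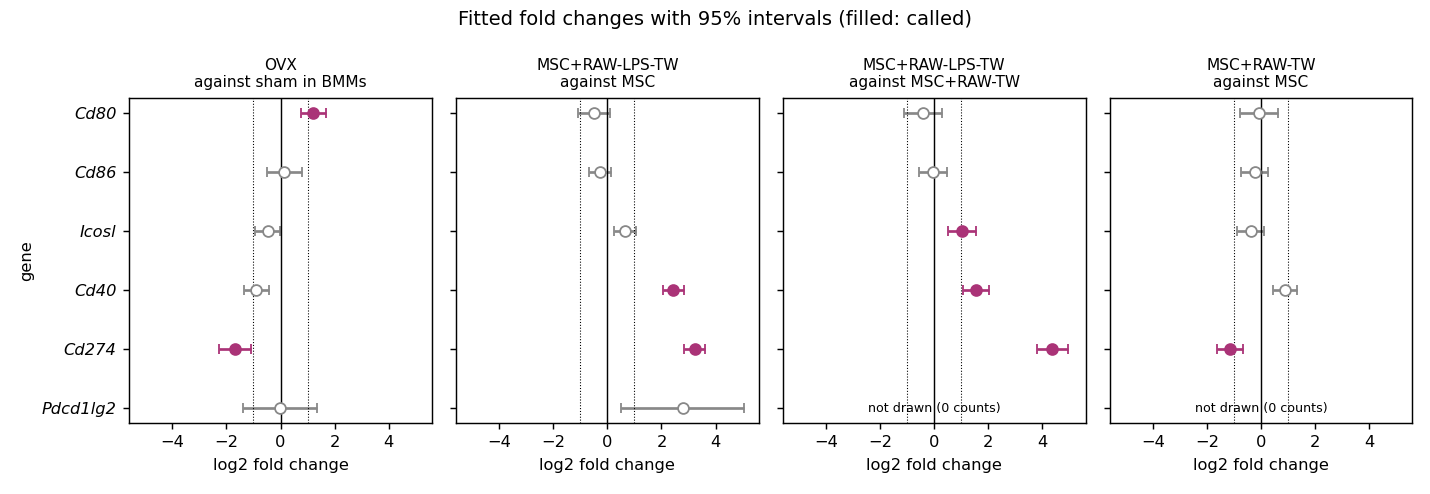
Points are fitted log2 fold changes of the 6 genes in the 4 comparisons and bars are 95% intervals; filled points were called, dotted lines mark a 2-fold change, and Pdcd1lg2 is not drawn where MSC+RAW-TW has 0 counts. Cd274 lies at -1.70 in OVX and at 3.23 and 4.37 in the comparisons with LPS.

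Genes of CD40 signaling and of the interferon inputs were read in the same comparisons, each list beside the shares of all genes given above. Of 11 CD40 signaling genes 5 were called higher and none lower against MSC, with a median log2 fold change of 0.89 beside -0.01 over all genes. Tnfaip3, which encodes the NF-kB inhibitor A20, was at 256 ± 26.3 CPM against 23.6 ± 1.70 CPM (log2 fold change 3.44). Traf1, an adaptor of TNF receptors, was at 161 ± 5.21 CPM against 22.3 ± 4.26 CPM (2.85). Of 13 interferon and JAK-STAT genes and regulators 4 were called higher and none lower. Jak2, a kinase of the interferon gamma receptor, stood at 403 ± 21.8 CPM against 45.5 ± 3.36 CPM (3.14), and Ifnar2, a chain of the type I interferon receptor, at 111 ± 21.1 CPM against 44.5 ± 0.46 CPM (1.31).

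Among 9 other checkpoint and adhesion ligands 3 were called higher against MSC and none lower, with Cd200, an inhibitory ligand for myeloid cells, at 2.23 and Pvr, the poliovirus receptor bound by TIGIT, at 1.11. Of the costimulatory ligands of the TNF superfamily, 5 of 7 were tested. Tnfsf15 was called higher (2.98, from 0.19 ± 0.19 to 1.62 ± 0.17 CPM) and Tnfsf14, also named LIGHT, lower (-4.12). Of 5 tested B7 and butyrophilin genes 1 was called, Btnl9, lower (-2.998). Cd28 was lower, at 0.34 ± 0.03 CPM against 3.94 ± 0.26 CPM (-3.53).

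Against MSC+RAW-TW, where 14.8% of all genes were called higher and 11.3% lower, these lists gave 5 called higher and 1 lower of 11 CD40 signaling genes, where Map3k14, the kinase that starts the noncanonical NF-kB pathway, was the lower one (-1.28). They gave 3 higher and none lower of 13 interferon genes, and 5 higher and none lower of 9 checkpoint and adhesion ligands, where the number called higher was 2 with GC content and length trends removed. Of 5 tested B7 and butyrophilin genes none was called higher and 2 were called lower, Vsir, the B7 family checkpoint VISTA (-1.31, 94.6 ± 10.8 against 234 CPM), and Btnl9 (-3.85, with 7 counts in the higher LPS library and 0 in the other). With GC content and length trends removed 1 was called higher and 2 lower. Of 5 tested costimulatory ligands of the TNF superfamily 2 were called higher and 1 lower. Tnfsf9, the ligand of 4-1BB, was higher (1.02), Tnfsf15 was higher, with 0 counts in MSC+RAW-TW and 1.62 CPM with LPS, and Tnfsf14 was lower (-4.36). Cd28, the 1 receptor tested, was lower (0.34 against 2.08 CPM). In MSC+RAW-TW against MSC, Lgals9 was higher (1.02) and Ceacam1, a ligand of TIM-3, lower (-1.47), the only calls among these ligands. With GC content and length trends removed none of them was called higher. Then 1 checkpoint and adhesion ligand and 1 B7 or butyrophilin gene were called lower. In that comparison 1 CD40 signaling gene was called in each direction, Traf5 higher (1.19) and Birc2 lower (-1.63).

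Across the 5 groups, centred within each experiment, the genes most like each member were found by the root-mean-square difference in log2 CPM among 12514 genes of at least 1 CPM on average. For Cd274 they were Rasgrp1 (0.14), Tarm1 (0.21) and Plbd1 (0.24), for Cd40 Tspan11 (0.02), Dgat2 (0.11) and Tnip1 (0.12), and for Cd80 Medag (0.03), Carmn (0.04) and Cenpi (0.04). For Icosl they were Herpud1, Thg1l and Pcnx (0.03 to 0.04), and for Cd86 they included Cdc42ep1 and Deaf1 (0.02 each). Pdcd1lg2 was under the minimum level. These profiles rest on 5 group means, that of MSC+RAW-TW from 1 sample. Small differences among so many genes were not set against a background and are a description only.

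The 250 bases before the RefSeq start are shown for Cd274 and Cd80, the pair called in opposite directions in OVX (GRCm38.p6, both on the plus strand, chr19:29367188-29367437 and chr16:38458683-38458932). The RefSeq start of Cd80 lies inside the span of the gene given above. Capitals mark a match to GAAANNGAA, an interferon-regulatory-factor half-site pair searched on both strands; it lies on the minus strand of Cd274, beginning 76 bases before the start.
Cd274: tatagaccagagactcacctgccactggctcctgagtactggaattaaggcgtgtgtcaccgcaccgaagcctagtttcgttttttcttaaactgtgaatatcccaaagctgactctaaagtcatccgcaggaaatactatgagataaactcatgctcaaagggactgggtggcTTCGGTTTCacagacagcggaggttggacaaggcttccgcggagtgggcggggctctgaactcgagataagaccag
Cd80: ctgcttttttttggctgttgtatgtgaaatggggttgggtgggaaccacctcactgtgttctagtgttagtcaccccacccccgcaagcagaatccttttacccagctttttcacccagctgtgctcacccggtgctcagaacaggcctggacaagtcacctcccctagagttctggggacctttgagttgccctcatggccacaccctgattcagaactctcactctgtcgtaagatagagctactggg
GAAANNGAA occurs in 7.13% of 32851 promoters of this length, the NF-kB kB consensus in 7.25% and the STAT motif TTCNNNGAA in 7.02%. Of the 4 members with an entry, Cd274 had only the first, Pdcd1lg2 and Icosl each had 1 kB consensus match, and Cd80 had none of the 3. A match in the letters is a description and shows no binding.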

How the data were processed

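Poly(A) RNA was turned into strand-marking libraries by the authors, who per the labels trimmed reads with Trim Galore 0.6.7, mapped them to GRCm38 with HISAT2 2.1.0 and counted them with featureCounts 2.0.1; the strand setting is not given in the sources used here. Raw counts were deposited for every gene beside its exon length. All 12 columns were used; 2 share the header MR-1 and 2 are headed MRL-2 and MRL-3, so they were assigned by group only.

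Counts were tested with edgeR 4.0.16 in R 4.3.3 (TMM, filterByExpr, quasi-likelihood F-test), 1 fit per experiment. On simulated counts for OVX against sham, 200 of 200 genes changed 4-fold were recovered with 3 false calls among 15868 genes. The changed genes were drawn from well-expressed ones, with the same fixed dispersion for every gene and no GC content or length trend. The recovery therefore does not cover smaller changes or scarce genes. TPM used exon length; intervals are 95%. Likeness used a pseudocount of 0.1 CPM. Named genes were the 6 members, the 2 called genes at each end of each list, and the 3 genes most alike per member. Members and lists were chosen with earlier results of these data known. Deviations from the group means correlated at 0.41, -0.03 and 0.35 between same-numbered OVX and sham libraries. Between differently numbered ones they correlated at -0.48 to 0.30. The numbers were not taken as pairs in the main fit, and a replicate block was an alternative. Alternatives included DESeq2 1.42.0. Some results that the naming rule would give are not reported here.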

Additional observations from a re-analysis of the deposited data

How the results depend on the processing

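Of 331 member fold changes under alternatives, 304 kept their direction and their side of the threshold. Removing GC content and length trends, and blocking on the number series in the library headers, were chosen after seeing the data. In OVX against sham 1404 genes were called (904 higher, 500 lower); the count was 2193 with no fold limit, 2117 with a replicate block and every library separate (both member calls held), 594 with GC and length trends removed (222 higher, 372 lower), and 332 to 2253 leaving out 1 library, the extremes being without OVX replicate 2 and without sham replicate 1. Members called there numbered 2, 1 with GC and length trends removed, and 0 to 2 leaving out 1 library. With no fold limit 4303 genes were called in MSC+RAW-LPS-TW against MSC and 5483 in MSC+RAW-TW against MSC, where removing GC and length trends gave 1901 (1077 higher, 824 lower) in place of 3069 (1264 higher, 1805 lower). Members called against MSC+RAW-TW ranged from 2 to 4 leaving out 1 library, the lowest without the LPS library headed as number 2; in MSC+RAW-TW against MSC there were 2 in place of 1 with no fold limit, with every library separate, and without MSC replicate 1 (range 1 to 2). None of the reversed values was called. Leaving out 1 library, Cd86 in OVX ran from -0.071 to 0.266, reversed without OVX replicate 1, and was -0.35 with GC and length trends removed, and between both co-cultures it ran from -0.222 to 0.15. In MSC+RAW-TW against MSC, Cd80 ran from -0.264 to 0.139 (the latter without MSC replicate 1) and was 0.49 with GC and length trends removed, where Cd86 was 0.30. Pdcd1lg2 in OVX was 0.086 with every library separate, 0.035 with the replicate block, 0.10 with the number series as a block, 0.02 with GC and length trends removed, and ran from -0.436 to 0.353 leaving out 1 library. The cause of these shifts was not tested. A block on the replicate number could not be fitted in the MSC comparisons because the co-culture columns carry no matching numbers; with every library separate, adding the number series of the headers as a block took the members called in MSC+RAW-TW against MSC from 2 to 1, where Pdcd1lg2 went from an edgeR adjusted p of 0.0364 to 0.0529, and left the number called at 2 and 4 in the other two comparisons. Pdcd1lg2 had 47 counts or fewer per library.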
